A study of Homo sapiens with 3 samples.

Results

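The comparison described here sets HT-29, a colon adenocarcinoma line of epithelial character, beside MDA-MB-436, a breast adenocarcinoma line, using 2 of the 3 exon arrays of the series, 1 for each line. The HT-29 cells had been given interferon gamma (IFN-γ) at 200 U/ml for 24 h and were grown in McCoy's 5A medium with 10% serum under 5% CO2. The MDA-MB-436 cells were grown in L-15 medium with 10% serum and without CO2, and the labels name no cytokine for them. MCF10A, a non-tumorigenic mammary epithelial line on the remaining array, is quoted beside single genes for reference only. Its medium held 5% horse serum with insulin, cholera toxin, hydrocortisone and EGF, the ligand of the EGFR receptor.

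HT-29 without IFN-γ was not analysed here. Line, tissue of origin, medium and cytokine therefore cannot be told apart in any difference below. Each line had a single array, so replicate spread is unknown, no difference could be tested, and precision is limited by the array number. In whole cultures, fewer cells that make a transcript and less transcript per cell also cannot be told apart.

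Epithelial cells form sheets held together by E-cadherin junctions, tight junctions and desmosomes, and fill their cytoplasm with keratins. Mesenchymal-like cells use vimentin filaments, N-cadherin and matrix contacts instead, and transcription factors of the ZEB, SNAI and TWIST families repress epithelial genes. Colon epithelium adds a brush border, mucins and a set of endodermal transcription factors. IFN-γ acts through its receptor and JAK kinases to induce IRF1, guanylate binding proteins, chemokines and antigen presentation genes.

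The genes were chosen by annotation: every transcript cluster with a single gene symbol, with the brightest cluster kept where a gene had several, which gave 14410 genes from 18708 clusters. Values are linear intensities, whose median over clusters was 75.9 in HT-29 and 81.03 in MDA-MB-436. Background was set at 29.9, the 95th percentile of the values of 228 olfactory receptor genes, a family with little expression outside olfactory tissue. Intensities under background were raised to it before a difference was taken, so a fold against such a value is a lower bound and is written "at least". A gene was counted as different, written as past 4-fold toward the brighter line, when its fold was 4 or more, a log2 difference of 2. Above background on at least 1 of the 2 arrays lay 10531 genes, with 623 on the HT-29 array alone and 936 on the MDA-MB-436 array alone. The reference genes ACTB, a cytoskeletal actin, and GAPDH, a glycolytic enzyme, differed by 1.07-fold and 1.08-fold, and the sign of both differences turned under quantile normalization.

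In HT-29 with IFN-γ, 518 genes were past 4-fold above MDA-MB-436, 3.59% of all genes compared and 4.92% of those above background on either array. Past 4-fold in the other direction were 454 genes, 3.15% of all genes and 4.31% of those above background. The median log2 difference over all genes was 0, and 72.4% of the genes above background lay within 2-fold, with values under background raised to it. Folds of 32 or more were found for 44 genes on the HT-29 side and 19 on the MDA-MB-436 side. The shares of 4-fold genes are the background against which the counts of each family below are read. The family lists were chosen with earlier results of these data known. Their counts therefore describe the listed genes and are no test of a family.

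The largest bound on the HT-29 side was that of LYZ, which encodes the bacteriolytic enzyme lysozyme, at 4319.6 in HT-29 and 5.70 in MDA-MB-436, a difference of at least 144-fold. The kallikrein protease gene KLK6 and the gastrointestinal glutathione peroxidase gene GPX2 followed, at 3182 against 16.002 and 3133 against 16.3. ACSL5, an acyl-CoA synthetase gene, the choline transporter-like gene SLC44A4 and the neuromedin U receptor gene NMUR2 were at 2246 against 29.2, 2173 against 26.5 and 1992 against 13.2. None of these 6 genes exceeded background in MDA-MB-436. Among genes above background in both lines, the class II gene HLA-DPA1 had the largest difference, 95.2-fold, then the mucin-type glycosyltransferase gene GCNT3 at 66.2-fold and KRT19, a simple-epithelial keratin gene, at 63.9-fold. The SNARE gene VAMP8, the chloride channel family gene CLIC5 and the kallikrein gene KLK10 were 46.9-fold, 36.6-fold and 32.95-fold higher. VAMP8 and KLK10 were also bright in MCF10A, at 1913 and 799.9, whereas CLIC5 was at 30.3 there.

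On the MDA-MB-436 side the caveolin gene CAV1, whose product coats caveolae, was at 2446 in MDA-MB-436 and 33.7 in HT-29, 72.5-fold higher. VIM, the vimentin gene, was at 2038 in MDA-MB-436 and 21.02 in HT-29, at least 68.1-fold higher, and the cancer-testis gene MAGEA4 at 2009 in MDA-MB-436 and 6.33 in HT-29, at least 67.2-fold higher. The inflammatory cytokine gene IL1A was at 1933 against 26.5 and IL1B at 1277 against 14.4, and the mitophagy receptor gene BNIP3 was at 1439 against 6.31. HT-29 was under background for these 3 genes and for the neuronal deubiquitinase gene UCHL1 (1376 against 22.6), the imprinted gene PEG10 (1376 against 11.4) and the small GTPase gene RAB31 (1423 against 19.9). Genes measured in both lines included PCOLCE, which encodes an enhancer of procollagen processing (2603 against 69.7, 37.3-fold), the collagen receptor kinase gene DDR2 (1103 against 38.7, 28.5-fold) and the galectin gene LGALS1 (2518 against 98.6, 25.5-fold). FSCN1, which encodes the actin bundler fascin, and the complement gene C3 were 23.9-fold and 27.4-fold higher. MCF10A was also well above background for CAV1, VIM, IL1A, C3, LGALS1 and FSCN1, at 3732, 1933, 1416, 1861, 3039.6 and 2436, but was at 5.61, 25.4 and 23.8 for MAGEA4, UCHL1 and DDR2. BNIP3, PEG10, RAB31, IL1B and PCOLCE were above background in MCF10A too, at 755, 758, 666, 113 and 75.8.

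**Figure D1:**
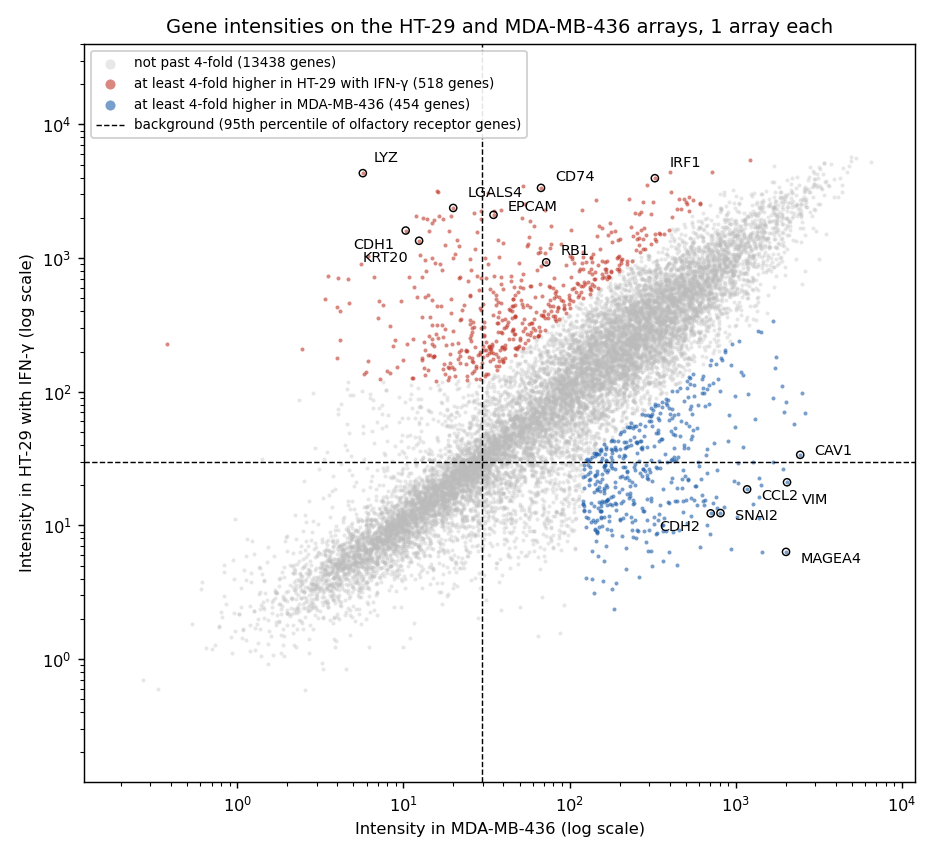
Intensity of 14410 genes in MDA-MB-436 (x axis, log scale) and HT-29 with IFN-γ (y axis, log scale), 1 point per gene and 1 array per line; red and blue points are the 518 and 454 genes past 4-fold and dashed lines mark the background of 29.9. Labelled genes such as LYZ and CDH1 lie left of the vertical line, under background in MDA-MB-436, while VIM and MAGEA4 lie below the horizontal line, under background in HT-29.

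The labelled origins were checked against marker genes. Of 9 colon epithelium markers, 8 were above background in HT-29 and 3 in MDA-MB-436. Those 3 were CDX1 (33.3), CDX2 (51.9) and EPCAM (34.9), all within the range of the olfactory receptor values, whose highest was 101. LGALS4 (2372), EPCAM (2107), KRT20 (1348), CEACAM5 (603) and VIL1 (263) were clearly measured in HT-29, while the intestinal cadherin gene CDH17 was under background at 21.3 and CDX1 and CDX2 were close to it at 34.8 and 74.8. All 6 mesenchymal-like markers exceeded background in MDA-MB-436 against 1 in HT-29. MCF10A had 5 of the 6 above background as well. SPARC, at 70.5 in MDA-MB-436, lay within the olfactory receptor range. Of 6 luminal breast markers, 3 were above background in MDA-MB-436, namely FOXA1 (100.3), KRT8 (403) and KRT18 (1228). That FOXA1 value also lay within the olfactory receptor range. ESR1, PGR and GATA3 were under background in MDA-MB-436, at 20.03, 4.36 and 27.2, and the basal keratin gene KRT14 was at 17.6 there. In HT-29, 4 of the 6 luminal markers were above background. Past 4-fold were 3 toward HT-29 and 0 toward MDA-MB-436, so these markers did not single out the breast line. Basal markers KRT5, KRT17 and TP63 were not analysed here.

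Epithelial adhesion and polarity genes were higher in HT-29. Of 17 genes of the epithelial surface and of cell polarity, 13 passed 4-fold toward HT-29 and 0 toward MDA-MB-436, with a median log2 difference of 2.61 against 0 over all genes. EPCAM, an epithelial adhesion molecule, was at 2107 in HT-29, 34.9 in MDA-MB-436 and 359.7 in MCF10A, 60.4-fold brighter in HT-29 than in MDA-MB-436. The membrane serine proteases prostasin, encoded by PRSS8, and matriptase, encoded by ST14, were at 1355 against 21.004 (at least 45.3-fold) and 1254 against 17.9 (at least 41.9-fold). Their Kunitz-type inhibitor genes went the same way, SPINT1 at 1297 against 39.6 and SPINT2 at 1229 against 21.7, 32.8-fold and at least 41.1-fold higher. The protease pair and both inhibitors were thus bright in HT-29 and close to or under background in MDA-MB-436. ERBB3, a receptor of the epidermal growth factor family, was at least 30.7-fold brighter in HT-29 (918 against 15.5), and RAB25, a GTPase of apical recycling, was at 493 against 3.40. MARVELD3, AP1M2, MAL2, LLGL2, LSR and PARD6B, genes of tight junctions, polarised sorting and polarity, were between 4.45-fold and 6.55-fold higher, the fold of AP1M2 being a lower bound. PARD6B fell short of 4-fold after quantile normalization. Polarity scaffold genes expressed widely differed less: PARD3 was at 188 against 98.6, PATJ at 378 against 131 and PALS1 at 135 against 217. Of the 13 higher genes, 12 were also above background in MCF10A, the exception being RAB25 at 8.17.

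Among 10 cadherins and catenins, 2 were past 4-fold toward HT-29 and 2 toward MDA-MB-436, so the family had no single direction. CDH1, the E-cadherin gene, was at 1607 in HT-29, 10.3 in MDA-MB-436 and 716 in MCF10A, at least 53.7-fold brighter in HT-29 than in MDA-MB-436. CDH2, the N-cadherin gene, was at 12.3 in HT-29, 708 in MDA-MB-436 and 33.9 in MCF10A, at least 23.7-fold brighter in MDA-MB-436. The lines thus held opposite members of this cadherin pair, each under background where the other was bright. The mesenchymal cadherin gene CDH11 was at 140.3 in MDA-MB-436 and 13.99 in HT-29, and JUP, which encodes plakoglobin of adherens junctions and desmosomes, at 1479.6 against 170.3, 8.69-fold brighter in HT-29. The catenin genes CTNNA1 and CTNNB1, which link either cadherin to actin, were bright in both lines, at 1796 against 741 and 1457 against 1023. P-cadherin, encoded by CDH3 and bright in MCF10A at 1238, was at 62.2 against 26.1.

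Claudins, the strand proteins of tight junctions, were split by member. Of 13 tight junction genes, 4 passed 4-fold toward HT-29 and 0 toward MDA-MB-436 (median 0.81). CLDN4 was at 2078 in HT-29, 16.3 in MDA-MB-436 and 128 in MCF10A, at least 69.5-fold higher, and CLDN7 at 1916 in HT-29, 15.3 in MDA-MB-436 and 1167 in MCF10A, at least 64.04-fold higher. CLDN3 was 6.14-fold brighter in HT-29 (824 against 134) and the scaffold gene TJP3 4.05-fold higher (350.3 against 86.6). By contrast CLDN12 and the scaffold gene TJP1 were bright in both lines, at 2373 against 1373 and 1269 against 753, and CLDN1 at 2222 against 900.0 stayed within 4-fold. MDA-MB-436 therefore had CLDN4 and CLDN7 under background while CLDN1, CLDN12 and TJP1 were well above background there.

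The CLDN7 promoter is shown because E-boxes of this type are bound by ZEB and SNAI factors, which the lines expressed at different levels (given further on). The E-box was searched as CACCTG on both strands, which reads CAGGTG on the other, in the 250 bases before each RefSeq start of GRCh38.p14. The table holds 2 starts for CLDN7, of which the one shown was chosen after its matches were seen; the other had 0. It lies at chr17:7262479-7262728, minus strand, runs 5′ to 3′ and ends at the base before the start, with its 4 matches in capitals, beginning 174, 135, 20 and 9 bases before the start.
CLDN7: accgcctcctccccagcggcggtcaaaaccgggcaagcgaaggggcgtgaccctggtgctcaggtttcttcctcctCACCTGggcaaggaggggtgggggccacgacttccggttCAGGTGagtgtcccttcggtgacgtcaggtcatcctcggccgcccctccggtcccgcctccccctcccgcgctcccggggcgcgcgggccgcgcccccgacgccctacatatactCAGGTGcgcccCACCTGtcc
Such a match was found in 21.7% of the 11523 compared genes with a promoter in the table. It was found in 5 of 7 epithelial surface genes, 4 of 11 tight junction genes and 3 of 8 epithelial regulator genes that had one. Among the other epithelial lists it was found in 4 of 8 desmosome genes, 1 of 5 cadherin and catenin genes and 0 of 7 keratin genes. Lists of other kinds had it as well, with 9 of 16 S100 genes and 5 of 13 caveolin, cavin and annexin genes, so nothing particular to epithelial genes is read from it. These matches describe letters, not binding.

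Desmosomes rivet epithelial cells to one another through desmosomal cadherins and plaque proteins. Of 12 genes, 3 passed 4-fold toward HT-29, 0 toward MDA-MB-436, and 6 were under background in both lines; the median was 0, or 2.002 over the 6 measured members. The cadherin gene DSC2 was at 618 against 58.2, 10.6-fold higher, the plaque gene PPL 7.495-fold higher and DSP, which encodes desmoplakin, 5.12-fold higher (619.5 against 121). DSG2, the desmoglein of simple epithelia, did not follow them, at 801 against 843. The skin-type members DSG1, DSG3, DSC1 and DSC3 were under background in HT-29 and MDA-MB-436 alike, whereas MCF10A had DSG3 at 1036 and DSC3 at 618.

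Keratins, the epithelial intermediate filament proteins, separated the lines through the simple-epithelial members. Of 16 measured keratin genes, 4 passed 4-fold toward HT-29 and 0 toward MDA-MB-436, and 6 were under background in both (median 0.25). KRT20, a keratin of intestinal epithelium, was at 1348 in HT-29, 12.4 in MDA-MB-436 and 10.5 in MCF10A, at least 45.1-fold higher. KRT19 was at 2253 in HT-29, 35.3 in MDA-MB-436 and 54.9 in MCF10A. KRT8 and KRT18, which pair in simple epithelia, were at 4443 against 403 and 5461 against 1228, 11.02-fold and 4.45-fold higher. MDA-MB-436 therefore kept KRT8 and KRT18 well above background even though both were lower than in HT-29, and the KRT18 fold was under 4 after quantile normalization. KRT7, a keratin of glandular epithelium that was at 3161 in MCF10A, was dim in both cancer lines, at 86.7 against 82.7. The stratified-type genes KRT14 and KRT4 were under background in both.

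Regulators of the epithelial state followed the adhesion genes. Of 12 genes, 6 passed 4-fold toward HT-29 and 0 toward MDA-MB-436 (median 1.85). ESRP1, an epithelial splicing regulator, was at 2075 in HT-29, 19.3 in MDA-MB-436 and 834 in MCF10A, at least 69.3-fold higher. The ETS factor gene EHF was at least 52.6-fold higher (1574 against 27.8) and the grainyhead factor gene GRHL2 at least 16.3-fold higher (489 against 14.8). KLF5, OVOL1 and the RNA-binding protein gene RBM47 were 8.75-fold, at least 6.92-fold and 4.24-fold higher, with RBM47 at 610.4 in MDA-MB-436 and under 4-fold after quantile normalization. GRHL2 and OVOL1 were under background in MCF10A as well, at 10.4 and 14.2, so these 2 genes exceeded background in HT-29 alone.

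Transcription factors that repress the epithelial state were in part higher in MDA-MB-436. Of 9 genes for transcription factors of the epithelial-mesenchymal transition (EMT), 5 passed 4-fold toward MDA-MB-436 and 0 toward HT-29, with a median log2 difference, HT-29 minus MDA-MB-436, of -2.74. SNAI2 was at 12.4 in HT-29, 810.0 in MDA-MB-436 and 4078 in MCF10A, at least 27.1-fold brighter in MDA-MB-436 than in HT-29. TWIST1 was at 38.2 in HT-29, 427 in MDA-MB-436 and 312 in MCF10A, 11.2-fold higher. ZEB1 was at 28.2 in HT-29, 289 in MDA-MB-436 and 48.3 in MCF10A, at least 9.66-fold higher, ZEB2 at 15.2 in HT-29, 210.2 in MDA-MB-436 and 32.2 in MCF10A, at least 7.02-fold higher, and PRRX1 at 17.8 in HT-29, 199 in MDA-MB-436 and 13.9 in MCF10A, at least 6.66-fold higher. ZEB1, ZEB2 and PRRX1 were thus brighter in MDA-MB-436 than on either other array, whereas SNAI2 was brightest in MCF10A, a line that also had CDH1 above background. FOXC2 (72.4 against 42.7) stayed within 4-fold. SNAI1 (54.3 against 22.5) and TCF4 (69.4 against 8.56) were not counted as past 4-fold. HT-29 was under background for both, so their folds are lower bounds. Raising the background to 60.6, the 99th percentile of the olfactory receptor values, left 3 of the 5 past 4-fold.

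Few filament and contractile genes separated the lines, and vimentin did so by the widest margin. Of 18 filament and contractile genes, 3 passed 4-fold toward MDA-MB-436, namely VIM, the calponin gene CNN3 (549 against 46.4, 11.8-fold) and CALD1, which encodes caldesmon (175 against 14.5, at least 5.86-fold), and 0 toward HT-29 (median 0). All 3 were also above background in MCF10A, at 1933, 278 and 335. The muscle genes DES and CNN1 were at 68.6 against 53.9 and 16.004 against 19.03, near or under background, and TPM1, a tropomyosin gene, was at 519 against 542. Moesin, encoded by MSN, was bright in both at 1687 against 1645. Among 16 caveolin, cavin and annexin genes, 3 passed 4-fold toward MDA-MB-436: CAV1, the membrane-binding gene ANXA6 (911 against 66.5, 13.7-fold) and the caveolar coat gene CAVIN3 (169 against 19.3, at least 5.64-fold). MCF10A had these 3 genes above background as well, at 3732, 79.6 and 611. CAV2 was at 564 against 182 and CAVIN1 at 178 against 114, both within 4-fold. ANXA10, an annexin of the gastrointestinal tract, went the other way at 249.7 against 11.5, at least 8.35-fold brighter in HT-29. ANXA1, ANXA2 and ANXA5 were bright in both lines, at 3533 against 3103, 3384 against 2870.0 and 2377 against 1688.

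**Figure D2:**
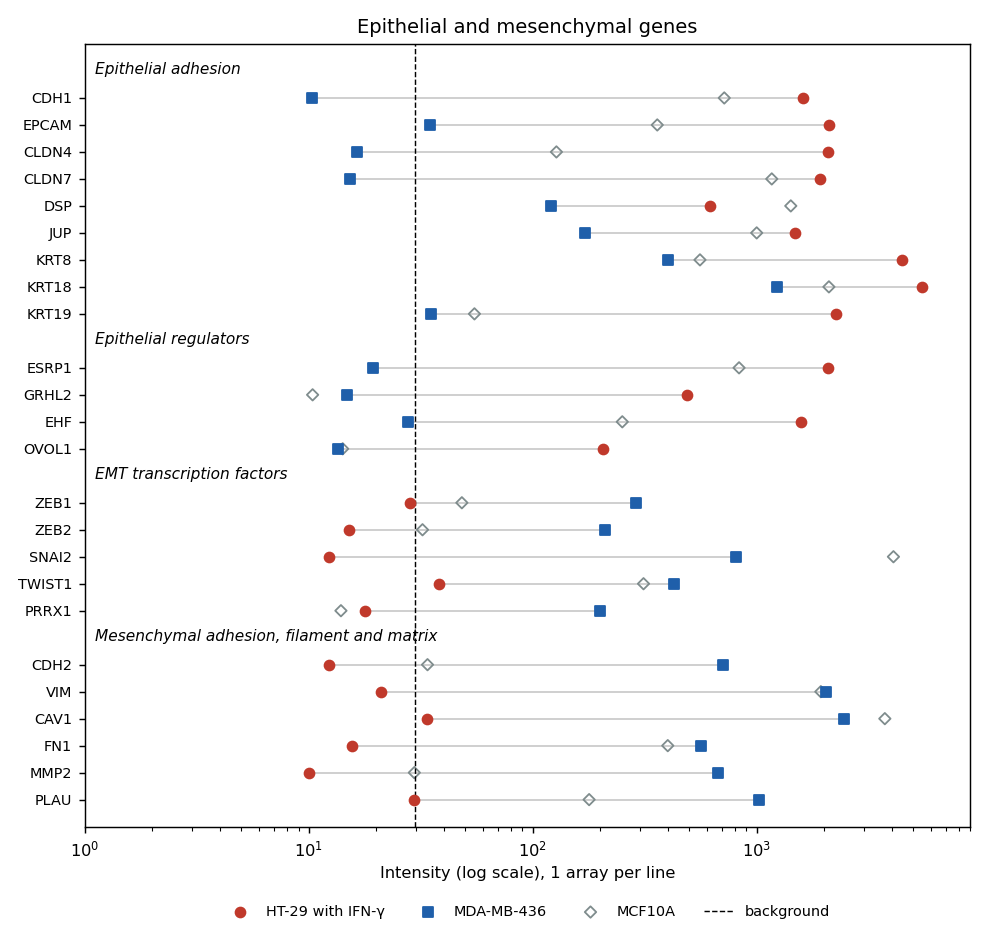
Intensity (log scale) of epithelial and mesenchymal genes on the HT-29 with IFN-γ (red circles), MDA-MB-436 (blue squares) and MCF10A (open diamonds) arrays, 1 array per line, with the background of 29.9 as a dashed line. CDH1, CLDN4, CLDN7 and ESRP1 lie to the left of the line in MDA-MB-436, and SNAI2, CDH2, VIM, FN1 and MMP2 to the left of it in HT-29.

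Matrix genes that were higher in MDA-MB-436 were mostly glycoproteins. Of 35 glycoprotein and proteoglycan genes, 11 passed 4-fold toward MDA-MB-436 and 0 toward HT-29 (median -1.24). Of these 11, 8 were also above background in MCF10A, with EFEMP1 at 1807, FBLN1 at 532 and FN1 at 401. NID1, SDC2 and FBN1 were under it there, at 10.5, 14.7 and 28.7. FN1, the fibronectin gene, was at 563 in MDA-MB-436 and 15.6 in HT-29, at least 18.8-fold, and the basement membrane gene NID1 at 445 in MDA-MB-436 and 15.1 in HT-29, at least 14.9-fold. CCN3, a matricellular signalling gene, was 18.3-fold brighter in MDA-MB-436 (991 against 54.3), LOXL2, a collagen-crosslinking oxidase gene, 17.8-fold (739.9 against 41.6), and the syndecan gene SDC2 at least 16.1-fold (482 against 12.6). FBN1, which encodes fibrillin, was at least 11.3-fold higher. The tenascin gene TNC, the glypican gene GPC6, EFEMP1, EFEMP2 and FBLN1 were also past 4-fold. BGN, the biglycan gene, was at 1318 against 341, short of the threshold, and passed it after quantile normalization. The stromal proteoglycan genes DCN and LUM were under background in both lines, at 2.34 against 1.98 and 11.9 against 2.23.

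Few collagen genes separated the lines. Of 31 chains, 13 were under background in both and 1, COL6A1, passed 4-fold toward MDA-MB-436 (309 against 65.5, 4.71-fold); none did toward HT-29. The fibrillar genes COL1A1, COL1A2 and COL3A1 were at 57.2 against 51.8, 29.1 against 32.2 and 30.8 against 28.6 in MDA-MB-436 against HT-29, near or under background. COL6A2, which partners COL6A1, was at 166 against 74.01 and COL12A1 at 90.03 against 13.2.

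Integrins, the receptors for matrix, were mostly shared. Among 26 integrin and laminin genes, 2 passed 4-fold toward HT-29 and 2 toward MDA-MB-436 (median 0). ITGA5, the fibronectin receptor subunit, was at 374 in MDA-MB-436 and 34.3 in HT-29, 10.9-fold, and the laminin gene LAMA4 at 132 in MDA-MB-436 and 12.9 in HT-29, at least 4.40-fold. In MCF10A, ITGA5 was at 572 and LAMA4 was under background at 13.01. ITGB6, a subunit restricted to epithelia, was at least 10.5-fold brighter in HT-29 (314 against 14.8), and ITGB5 4.70-fold higher (964 against 205). The subunits ITGB1, ITGAV and ITGA3 were well above background in both lines, at 921 against 678, 465 against 708 and 1101 against 711. Laminin chains of basement membranes, LAMB1 (432 against 253), LAMB2 (379.9 against 97.8) and LAMC1 (666 against 182), were below 4-fold, although LAMB2 and LAMC1 passed it after quantile normalization.

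Matrix proteases also differed by member. Of 26 genes, 5 passed 4-fold toward MDA-MB-436 and 1 toward HT-29. PLAU, which encodes urokinase, was at 1026 in MDA-MB-436 and 29.5 in HT-29, at least 34.3-fold, and the gelatinase gene MMP2 at 674 in MDA-MB-436 and 10.04 in HT-29, at least 22.5-fold. The membrane-type gene MMP16 was at least 10.5-fold higher, and the inhibitor genes SERPINE2 and TIMP3 4.79-fold and at least 4.78-fold. In MCF10A, PLAU, SERPINE2 and TIMP3 were above background, at 179, 95.8 and 1354, while MMP2 and MMP16 were under it, at 29.6 and 21.3. MMP7, matrilysin of glandular epithelia, was 8.88-fold brighter in HT-29 (399 against 44.95). The urokinase receptor gene PLAUR was bright in both lines and higher in HT-29, at 1997 against 669.8, and TIMP1 was at 3107 against 4395.

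**Figure D3:**
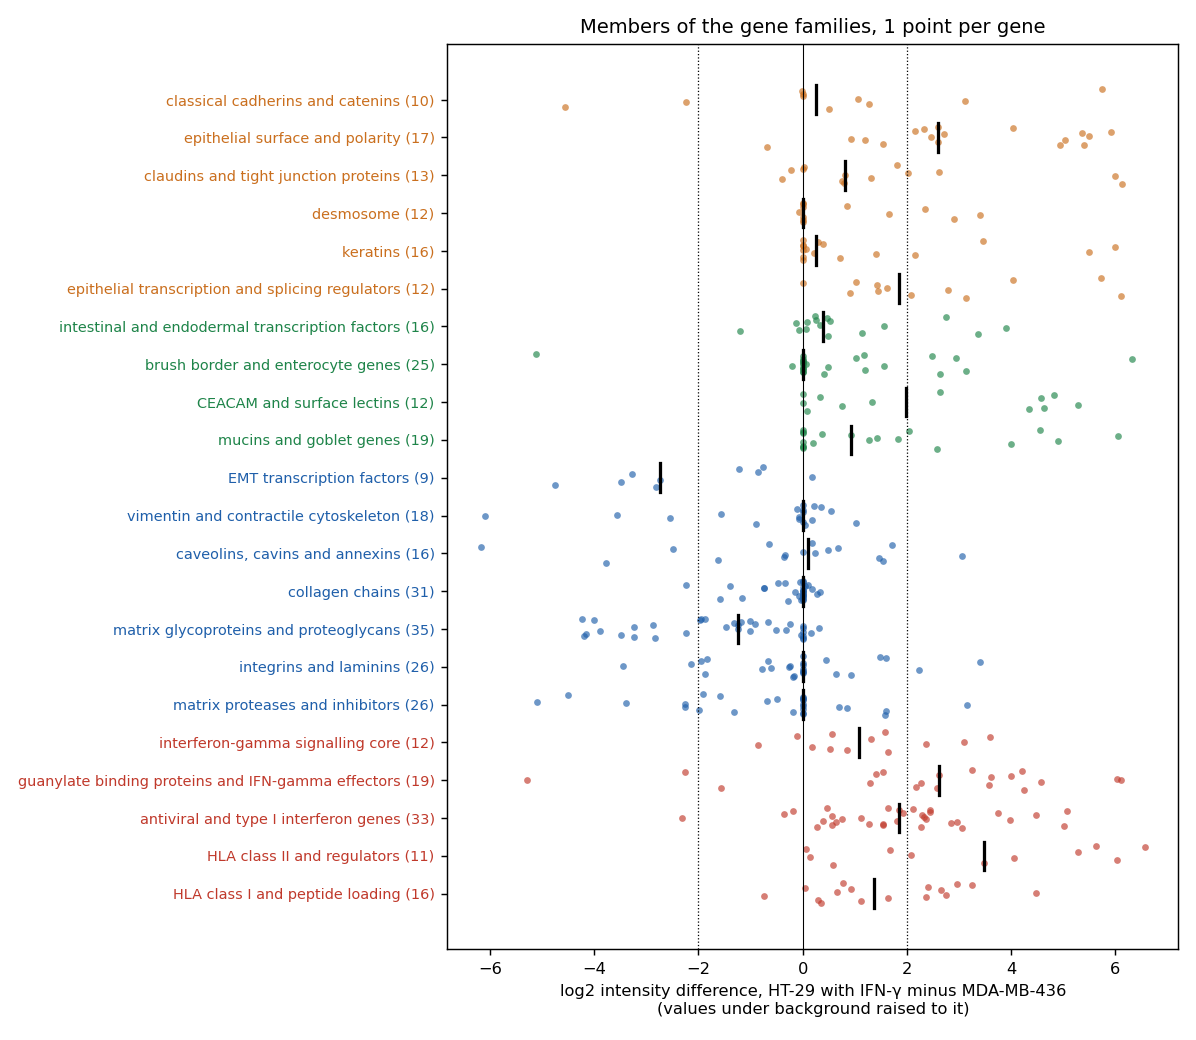
log2 intensity difference, HT-29 with IFN-γ minus MDA-MB-436, of each measured member of 22 gene families (1 point per gene, number of genes in parentheses); black bars mark the family median and dotted lines 4-fold. Epithelial surface, class II and IFN-γ effector genes lie mostly to the right, EMT transcription factor and matrix glycoprotein genes mostly to the left, and collagen and integrin genes centre on 0.

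Intestinal genes were higher in HT-29, in part of each family. Of 12 CEACAM, galectin, tetraspanin and related surface genes, 6 passed 4-fold toward HT-29 and 0 toward MDA-MB-436 (median 1.98). CEACAM1 was at 1994 against 51.5, 38.7-fold higher, and CEACAM5, the carcinoembryonic antigen gene, at 603 against 11.5, at least 20.2-fold, although probes of these related genes can share signal. The tetraspanin genes TSPAN1 and TSPAN8 were 28.4-fold and at least 24.7-fold higher (1737 against 61.2 and 738 against 3.52). Of the 6 higher genes, 3 were also above background in MCF10A, with TSPAN1 at 387. LGALS9, which encodes an IFN-γ-inducible galectin, was at 708 against 29.3, at least 23.7-fold, while LGALS3 was at 140.1 against 82.6.

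Brush border and enterocyte genes gave 5 of 25 past 4-fold toward HT-29, 1 toward MDA-MB-436 and 10 were under background in both lines, with a median of 0.003, or 1.18 over members above background. LGALS4, an intestinal galectin gene, was at 2372 in HT-29, 19.9 in MDA-MB-436 and 13.99 in MCF10A, at least 79.3-fold higher. VIL1, which encodes the microvillus actin bundler villin, was at 263 in HT-29, 14.3 in MDA-MB-436 and 11.3 in MCF10A, at least 8.80-fold higher. USH1C and CDHR5, genes of the links between microvilli, were at least 7.66-fold and 6.21-fold higher. The carbonic anhydrase gene CA2 was at least 5.57-fold brighter in HT-29 (167) than in MDA-MB-436 (26.3), but was brightest in MCF10A, at 792. With the background at 60.6, 2 of these 5 stayed past 4-fold. ANPEP, an aminopeptidase of the brush border, differed the other way, at 1038 in MDA-MB-436 and 20.6 in HT-29, at least 34.7-fold brighter in MDA-MB-436, and was at 2429 in MCF10A. The digestive genes SI, LCT, FABP2 and MEP1A and the apolipoprotein genes APOA4 and APOB were under background in HT-29, at 4.40, 14.9, 4.07, 7.49, 15.1 and 9.07. Other enterocyte products were above it, with the peptidase gene DPP4 at 807 against 274, APOA1 at 58.7 against 41.9 and MEP1B at 31.4 against 3.34.

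Among 19 mucin and goblet cell genes, 6 passed 4-fold toward HT-29, 0 toward MDA-MB-436 and 7 were under background in both (median 0.93). GCNT3 and the mucin-type transferase genes GALNT3 and GALNT12 were 66.2-fold, at least 16.02-fold and 4.10-fold higher, GALNT12 falling under 4-fold after quantile normalization. Of the 6 higher genes, 4 were also above background in MCF10A, with GALNT3 at 320. The membrane mucin gene MUC13 was at 898 in HT-29, 5.55 in MDA-MB-436 and 3.73 in MCF10A, at least 30.003-fold, and MUC1 at 513 in HT-29, 86.04 in MDA-MB-436 and 688 in MCF10A, 5.96-fold. AGR2, a disulfide isomerase needed for mucin folding, was at 701 against 4.64, at least 23.4-fold. Secreted goblet products were low, with TFF3 at 72.6, FCGBP at 106, CLCA1 at 5.25 and ZG16 at 4.20 in HT-29. The gel-forming mucin genes MUC2 and MUC5AC were not analysed here.

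Of 16 intestinal and endodermal transcription factor genes, 3 passed 4-fold toward HT-29 and 0 toward MDA-MB-436 (median 0.40). HNF4G, a nuclear receptor of intestinal epithelium, was at 445 in HT-29, 7.58 in MDA-MB-436 and 8.69 in MCF10A, at least 14.9-fold higher. The pioneer factor gene FOXA1 was at 1031 in HT-29, 100.3 in MDA-MB-436 and 165 in MCF10A, 10.3-fold higher, and the secretory-lineage factor gene SPDEF at 219 against 32.6, 6.73-fold. GATA6 was shared, at 510.2 against 362. CDX2, which specifies the intestine, was at 74.8 in HT-29, 51.9 in MDA-MB-436 and 53.2 in MCF10A, a span within the olfactory receptor values, whose highest was 101. HNF4A was not analysed here.

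**Figure D4:**
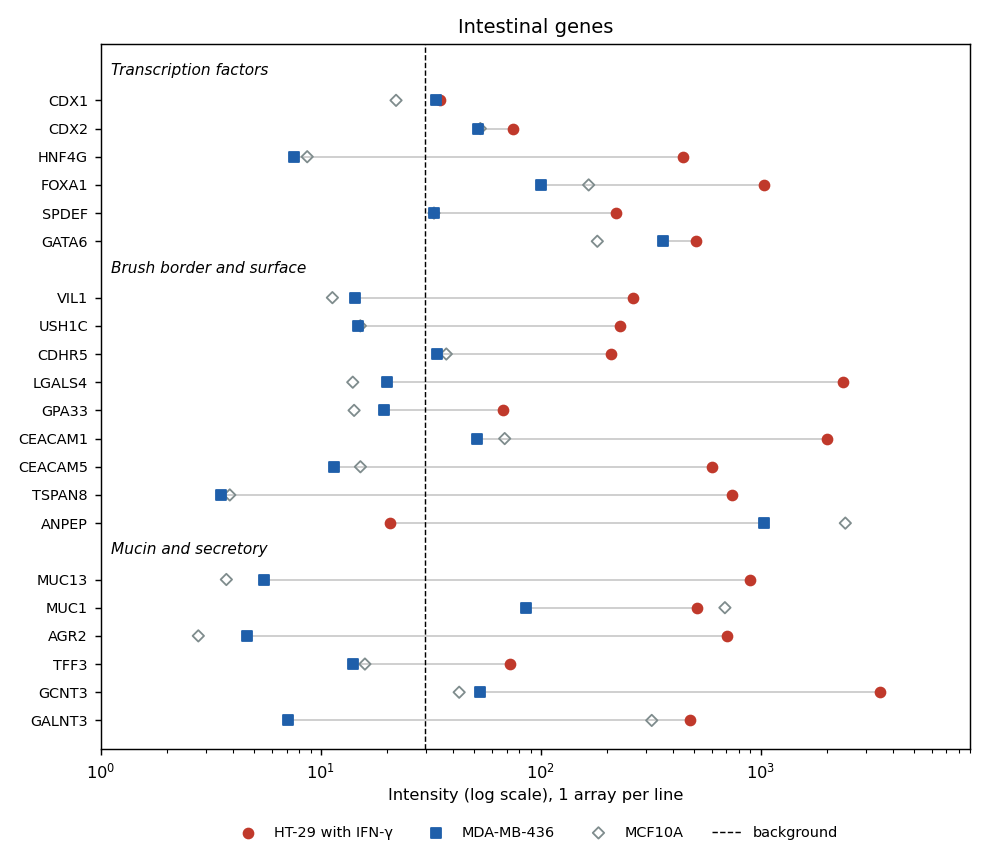
Intensity (log scale) of intestinal transcription factor, brush border, surface and secretory genes on the HT-29 with IFN-γ (red circles), MDA-MB-436 (blue squares) and MCF10A (open diamonds) arrays, 1 array per line, with the background as a dashed line. LGALS4, TSPAN8, MUC13 and AGR2 are above the line in HT-29 alone, CDX1 and CDX2 are near it on all 3 arrays, and ANPEP is above it in MDA-MB-436 and MCF10A.

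Breast lineage genes differed in both directions. Of 24 mammary regulators and markers, 4 passed 4-fold toward HT-29, 2 toward MDA-MB-436 and 11 were under background in both (median 0). Over the 13 members above background the median was 1.12. The genes higher in HT-29 were FOXA1, SPDEF, the melanophilin gene MLPH (489 against 75.8, 6.45-fold) and the secretory stress factor gene XBP1 (2541 against 608, 4.18-fold, under 4-fold after quantile normalization). In MDA-MB-436 the AP-2 factor gene TFAP2C was at least 9.75-fold higher (292 against 15.8) and PRLR, the prolactin receptor gene, at least 5.68-fold higher (169.9 against 15.6). The milk and secretory genes SCGB2A2, PIP, LALBA and CSN3 were under background in both lines.

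Growth factor receptors differed in both directions. Of 33 receptor tyrosine kinase genes, 3 passed 4-fold toward HT-29 and 4 toward MDA-MB-436. HT-29 had more ERBB3, MST1R (277 against 39.02, 7.09-fold) and EPHA1 (204 against 31.3, 6.52-fold), which are receptors of epithelia. MDA-MB-436 had more DDR2, AXL (355 against 44.3, 8.02-fold), FGFR1 (245 against 27.4, at least 8.17-fold) and EPHA4 (152 against 20.97, at least 5.10-fold). EGFR (619 against 346), MET (1819 against 629) and IGF1R (244 against 349) were well above background in both. Of 9 ERBB ligand genes, HBEGF (1118 against 119.7, 9.34-fold) and TGFA (220.4 against 49.96, 4.41-fold) were past 4-fold toward HT-29, and EREG was bright in both lines, at 3255 against 961.

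Genes of the TGF-beta and BMP pathway differed in both directions, with 7 of 30 past 4-fold toward MDA-MB-436 and 3 toward HT-29 (median -0.072). Extracellular antagonists and ligands made up much of the former: GREM1, a BMP antagonist, was at 371 in MDA-MB-436 and 11.4 in HT-29 (at least 12.4-fold), the activin subunit gene INHBA at 242 in MDA-MB-436 and 15.5 in HT-29 (at least 8.08-fold), and the follistatin genes FST and FSTL3 at 146 against 21.5 and 297 against 66.8 (at least 4.87-fold and 4.44-fold). BMP7 (at least 4.62-fold), the coreceptor gene TGFBR3 (at least 6.96-fold) and LTBP1 (128 against 31.2) completed the 7, LTBP1 falling under 4-fold with median centring, and 2 of the 7 held with the background at 60.6, where all 3 genes past 4-fold toward HT-29 held. In HT-29 the ligand gene BMP4 was at 449 against 23.2 (at least 15.01-fold), and the BMP target genes ID1 and SMAD6 were 19.1-fold and 4.84-fold higher (2744 against 144 and 244 against 50.4). Related genes of the list did not share this. ID2 (215 against 99.8) and SMAD7 (75.4 against 30.3) were higher in HT-29 but short of 4-fold. ID3 (38.1 against 61.2) and BAMBI (278 against 860) were brighter in MDA-MB-436, and ID4 was under background in both. The signal transducers SMAD2 (321 against 265), SMAD3 (1112 against 775) and SMAD4 (144 against 134) were within 2-fold.

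WNT feedback genes were mostly dim, with 1 of 21 past 4-fold in each direction. RNF43, which removes WNT receptors, was at 814 against 25.4, at least 27.2-fold brighter in HT-29, and the transcription factor gene LEF1 at 294 in MDA-MB-436 and 22.7 in HT-29, at least 9.83-fold brighter in MDA-MB-436. AXIN2 was at 201 against 72.9 and LGR5 under background in both. The antagonist gene DKK1 was bright in both lines, at 799.7 against 2615, 3.27-fold brighter in MDA-MB-436.

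Interferon genes formed the other large difference. The labels give IFN-γ for HT-29 and no cytokine for MDA-MB-436, and its part cannot be told apart from that of line and medium. Of 19 guanylate binding protein, chemokine and effector genes, 13 passed 4-fold toward HT-29 with IFN-γ and 2 toward MDA-MB-436 (median 2.62). TNFSF10, the death ligand TRAIL, was at 2059 in HT-29, 11.96 in MDA-MB-436 and 60.9 in MCF10A, at least 68.8-fold higher. GBP4 was at 1967 in HT-29, 29.5 in MDA-MB-436 and 4.92 in MCF10A, at least 65.8-fold, and GBP5 at 924 in HT-29, 49.8 in MDA-MB-436 and 5.86 in MCF10A, 18.5-fold. IDO1, which degrades tryptophan, was at least 16.1-fold higher (481 against 9.69), and CD274, the checkpoint ligand PD-L1, was at 603 against 50.5. GBP3 was at 921 against 205, past 4-fold on the deposited values but not after quantile normalization. The apolipoprotein L genes APOL1, APOL2, APOL3 and APOL6 were all past 4-fold, at 484 against 50.9, 269 against 55.6, 184 against 21.9 and 891 against 149.

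The 5 chemokine genes of the list did not share a direction. The CXCR3 ligand genes CXCL9, CXCL10 and CXCL11, which attract T cells, were at 716, 2790.3 and 2274 in HT-29 and at 6.62, 229 and 119 in MDA-MB-436. The folds toward HT-29 were at least 23.9-fold for CXCL9, 12.2-fold for CXCL10 and 19.04-fold for CXCL11. CXCL10 and CXCL11 were thus well above background in MDA-MB-436, while MCF10A had 5.28 and 4.49. Both CC chemokine genes of the list were higher in MDA-MB-436: CCL2, which attracts monocytes, was at 1172 in MDA-MB-436 and 18.6 in HT-29, at least 39.2-fold brighter in MDA-MB-436, and CCL5 at 1367 in MDA-MB-436 and 287 in HT-29, 4.77-fold. ICAM1, an adhesion molecule for leukocytes, was bright in both lines, at 2569 against 1049.9. PDCD1LG2, the second PD-1 ligand gene, was under background in HT-29 and at 88.4 in MDA-MB-436, opposite to CD274.

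The signalling core had a lower median than the effector genes. Of 12 genes, 3 passed 4-fold toward HT-29 and 0 toward MDA-MB-436 (median 1.08). The transcription factor gene IRF1 was at 3961 in HT-29, 326 in MDA-MB-436 and 94.9 in MCF10A, 12.1-fold higher, IRF8 at 263 against 30.6, 8.59-fold, and SOCS1, a feedback inhibitor of JAK kinases, at 211 against 40.7, 5.19-fold. The receptor genes IFNGR1 and IFNGR2 were at 942 against 316 and 379.8 against 692, JAK1 and JAK2 at 887 against 788 and 405 against 163, and IRF9 at 1345 against 916. Both lines therefore had the receptor and kinase transcripts above background.

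Class II antigen presentation genes had a median of 3.48, with 7 of 11 past 4-fold toward HT-29 and 0 toward MDA-MB-436. CIITA, the coactivator that switches on this family, was at 496 in HT-29, 19.4 in MDA-MB-436 and 14.9 in MCF10A, at least 16.6-fold higher. The chain genes HLA-DRA (1169 against 27.03), HLA-DPA1 (3072 against 32.3) and HLA-DPB1 (1945 against 17.3) were at least 39.1-fold, 95.2-fold and at least 65.02-fold higher, and the invariant chain gene CD74 was at 3352 in HT-29, 67.4 in MDA-MB-436 and 22.3 in MCF10A, 49.8-fold higher. HLA-DMB, which edits the bound peptide, was 11.2-fold higher, and HLA-DOA was at 130.3 against 30.9. The DNA-binding partner gene RFX5 was similar, at 311 against 282, and its difference turned sign under quantile normalization. IFI30, a lysosomal reductase gene, was bright in all 3 lines, at 1881 in HT-29, 1259.7 in MDA-MB-436 and 1243 in MCF10A. Probes of related class II genes can share signal, and the HLA-DRB, HLA-DQA1 and HLA-DQB1 genes were not analysed here.

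Class I presentation genes differed by less. Of 16 genes, 7 passed 4-fold toward HT-29 and 0 toward MDA-MB-436 (median 1.38). The peptidase gene ERAP2 was at 705 in HT-29, 31.6 in MDA-MB-436 and 20.6 in MCF10A, 22.3-fold higher, and the class I gene HLA-E at 2632 against 276, 9.53-fold. The peptide transporter gene TAP1 was 7.75-fold higher and its partner TAP2 was at 1001 against 193. Also higher were the immunoproteasome genes PSMB8 and PSMB10 5.29-fold and 6.70-fold, and the class I coactivator gene NLRC5 6.29-fold (505 against 80.3). B2M was at 2485 in HT-29, 1444 in MDA-MB-436 and 527 in MCF10A, within 2-fold between the cancer lines. The general chaperone genes CANX and PDIA3 were at 3331 against 3244 and 2164 against 1695, and CALR was at 1068 against 1798.

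Antiviral genes were above background in both lines with few exceptions. Of 33 type I interferon and antiviral genes, 32 were above background in MDA-MB-436, against 18 in MCF10A, and 15 passed 4-fold toward HT-29 and 1 toward MDA-MB-436 (median 1.84). TRIM22 was at 1003 in HT-29, 14.8 in MDA-MB-436 and 210.5 in MCF10A, at least 33.5-fold brighter in HT-29 and the member that MDA-MB-436 had under background. IFITM1, a block to viral entry, was at 2277 against 70.9, 32.1-fold, and MX2, OAS2 and IFIT5 were 22.1-fold, 15.8-fold and 13.5-fold higher. Other members were nearly level: IFI6 was at 2984 in HT-29, 3409.8 in MDA-MB-436 and 56.8 in MCF10A, IFI44 at 350.3 in HT-29, 288 in MDA-MB-436 and 3.34 in MCF10A, RSAD2 at 386 in HT-29, 497 in MDA-MB-436 and 17.04 in MCF10A, IFIT1 at 679.9 in HT-29, 462 in MDA-MB-436 and 12.9 in MCF10A and BST2 at 1215 in HT-29, 881 in MDA-MB-436 and 10.95 in MCF10A. For these 5 genes the cancer lines differed by less than 2-fold, while both were several-fold above MCF10A. HERC5, a ligase for ISG15, was 4.95-fold brighter in MDA-MB-436 (157 against 31.7), a call lost with the background at 60.6.

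**Figure D5:**
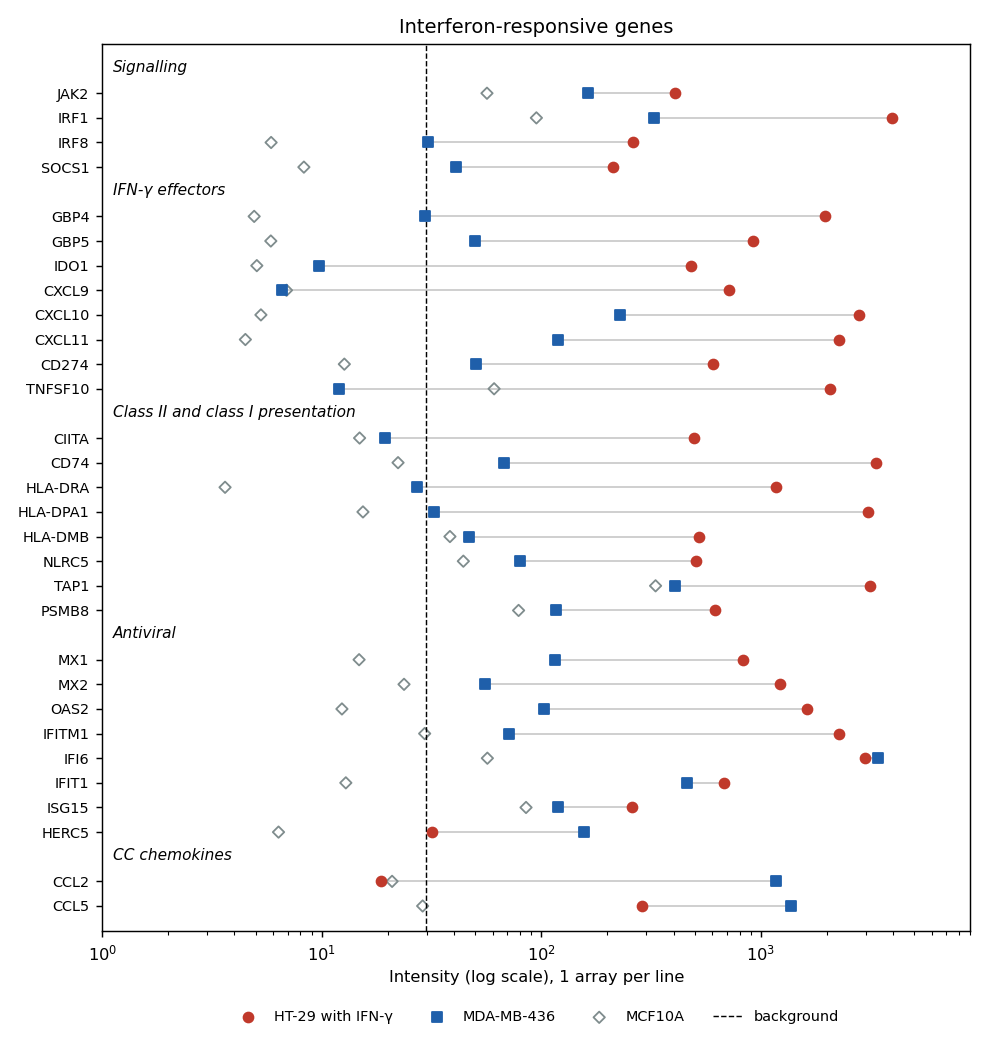
Intensity (log scale) of interferon-responsive genes on the HT-29 with IFN-γ (red circles), MDA-MB-436 (blue squares) and MCF10A (open diamonds) arrays, 1 array per line, with the background as a dashed line. Class II and IFN-γ effector genes are far apart between HT-29 and MDA-MB-436, IFI6 and IFIT1 are close together, and CCL2 and CCL5 lie higher in MDA-MB-436.

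Promoters of IRF1, CXCL10 and CD274, known IFN-γ targets, are shown as examples, each marked only for the motifs named for it below. These genes were brighter in HT-29 with IFN-γ, a difference in which line, medium and cytokine cannot be told apart. A gamma-activated site (GAS) was searched as TTCNNNGAA, and an interferon-stimulated response element (ISRE), bound by IRF and ISGF3 factors, as TTTC, any 2 bases, then TTTC, each on both strands, in the 250 bases before each RefSeq start of GRCh38.p14. The sequences run 5′ to 3′ on the gene's strand and end at the base before the start, and capitals mark the match. IRF1 lies at chr5:132490774-132491023, minus strand, with a GAS match that begins 124 bases before the start. CXCL10 lies at chr4:76023498-76023747, minus strand, with an ISRE match that begins 221 bases before it. CD274 lies at chr9:5450292-5450541, plus strand, with overlapping ISRE matches that begin 208 and 202 bases before the start and a GAS match at 125.
IRF1: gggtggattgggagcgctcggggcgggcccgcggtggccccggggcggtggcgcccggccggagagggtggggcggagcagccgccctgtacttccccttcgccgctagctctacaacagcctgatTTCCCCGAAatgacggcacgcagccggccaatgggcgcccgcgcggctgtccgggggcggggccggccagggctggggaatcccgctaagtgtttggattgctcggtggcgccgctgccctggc
CXCL10: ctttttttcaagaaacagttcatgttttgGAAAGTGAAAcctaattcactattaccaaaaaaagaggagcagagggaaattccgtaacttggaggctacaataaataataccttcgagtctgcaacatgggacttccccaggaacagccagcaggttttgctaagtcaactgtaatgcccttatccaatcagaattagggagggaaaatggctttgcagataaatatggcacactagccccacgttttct
CD274: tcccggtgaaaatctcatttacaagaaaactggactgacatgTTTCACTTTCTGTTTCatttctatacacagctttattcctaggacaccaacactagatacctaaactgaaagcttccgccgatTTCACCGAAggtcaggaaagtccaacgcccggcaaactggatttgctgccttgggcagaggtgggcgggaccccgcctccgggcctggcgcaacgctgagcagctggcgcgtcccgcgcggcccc
Over the compared genes with a promoter in the table, 8.17% had a GAS match and 3.58% an ISRE match. ISRE matches were found in 19 of 28 antiviral genes with a promoter in the table, 8 of 13 class I presentation genes and 5 of 10 IFN-γ effector genes. Only 1 of 8 class II genes and 1 of 11 signalling core genes had such a match. GAS matches were found in 5 of 10 IFN-γ effector genes and 9 of 28 antiviral genes, but in 2 of 11 signalling core genes, 2 of 13 class I genes and 0 of 8 class II genes. These are counts of letters in short windows and show no binding.

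Some neural-type and cancer-testis genes were higher in MDA-MB-436. Of 26 neural-type genes, 6 passed 4-fold toward MDA-MB-436, 0 toward HT-29, and 12 were under background in both. UCHL1, the adhesion gene L1CAM (473 against 18.99, at least 15.8-fold) and NCAM1 (229 against 15.9, at least 7.67-fold) led, with the neuronal enolase gene ENO2 (559.9 against 92.5), the neurofilament gene NEFL (156 against 14.1) and the GDNF coreceptor gene GFRA1 (182 against 16.5). With the background at 60.6, 3 of the 6 passed. MBP, the myelin basic protein gene, was brighter in HT-29, at 256 against 138, within 4-fold. Of 10 cancer-testis genes, which are normally confined to germ cells, 3 were past 4-fold toward MDA-MB-436: MAGEA4, the meiotic gene HORMAD1 (311 against 6.48, at least 10.4-fold) and MAGEA10 (181 against 8.49, at least 6.06-fold). MAGEC1 was at 40.1 against 8.97, and the other 6 members were under background in both lines.

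HOX genes, which record body position, were higher in HT-29 for part of the HOXB cluster. Of 22 measured, 4 passed 4-fold toward HT-29 and 0 toward MDA-MB-436. HOXB9 was at 2283 in HT-29, 38.9 in MDA-MB-436 and 36.8 in MCF10A, 58.7-fold, and HOXB8 and HOXB3 were 5.62-fold and 4.54-fold higher (194 against 34.6 and 170.2 against 37.4). HOXA2 was 5.56-fold higher (325 against 58.5). HOXB5 and HOXB6, which lie in the same cluster, were at 95.9 against 11.2 and 106 against 12.3, above background in HT-29 only. HOXC13 and HOXC9 were brighter in MDA-MB-436, at 107 against 27.4 and 57.2 against 18.2, and were not counted as past 4-fold. HT-29 was under background for both, so their folds are lower bounds.

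A few calcium-binding S100 genes and serpins separated the lines. S100P was at 1015 against 37.6, 26.98-fold higher, and S100A14 at 451 against 30.3, 14.9-fold, while S100A8, a subunit of calprotectin, was at least 10.04-fold brighter in MDA-MB-436 (300.3 against 9.29); these were the 3 of 17 past 4-fold. S100A10 and S100A11 were bright in both lines, at 3962 against 3109 and 3412 against 3072. Among 16 serpins, SERPING1, the complement C1 inhibitor gene, was at least 17.8-fold brighter in HT-29 (532 against 14.2), SERPINB9, an inhibitor of granzyme B, at least 17.01-fold (509 against 13.6) and SERPINB1 11.6-fold (1728 against 149), and SERPINE2 was the member higher in MDA-MB-436.

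Detoxifying enzymes differed in both directions, with 7 of 26 past 4-fold toward HT-29 and 4 toward MDA-MB-436. After GPX2, the cytochrome gene CYP3A5 was at 1049 against 12.7, at least 35.1-fold higher, the retinaldehyde dehydrogenase gene ALDH1A1 at 807 against 13.6, at least 26.98-fold, and the aldo-keto reductase gene AKR1C3 at 288 against 45.4, 6.34-fold. The isoform gene ALDH1A3 was at 1192 in MDA-MB-436 and 96.4 in HT-29, 12.4-fold brighter in MDA-MB-436. It was above background in both lines and differed in the direction opposite to ALDH1A1. GPX8 (449 against 32.5, 13.8-fold), GSTM3 (208 against 8.37, at least 6.95-fold) and CYP1B1 (703 against 159, 4.42-fold) were also higher in MDA-MB-436.

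Proliferation genes were similar. Of 27 mitotic and 23 S phase genes none was past 4-fold, with medians of -0.15 and -0.40, or -0.33 and -0.66 after quantile normalization. The proliferation antigen gene MKI67 was at 969 against 437 and the helicase subunit gene MCM2 at 318 against 311. Among 15 genes of the retinoblastoma pathway, RB1 was at 930.1 in HT-29, 72.4 in MDA-MB-436 and 1155 in MCF10A, 12.9-fold brighter in HT-29, and the cyclin gene CCND2 at 446 in MDA-MB-436 and 5.05 in HT-29, at least 14.9-fold brighter in MDA-MB-436. The RB1 level in MDA-MB-436 was within the range of olfactory receptor values, whose maximum was 101. The p16 gene CDKN2A was similar in both, at 499.9 against 371. Ribosomal protein genes had a median of 0.56, or 0.24 after quantile normalization, with none of 22 past 4-fold.

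Markers of cell types that neither culture should contain were under background in part. Of 12 leukocyte markers, 7 were under background in both lines, PTPRC at 3.72 against 4.16 and CD3E at 8.10 against 8.51, and LYZ was the 1 member past 4-fold. CD68, a lysosomal protein gene of macrophages, was at 1203 in MDA-MB-436 and 314 in HT-29 and passed 4-fold after quantile normalization. In HT-29 against MDA-MB-436, CD14 was at 38.9 against 86.5, MS4A1 at 67.98 against 30.3 and LAPTM5 at 47.8 against 37.5. The summed intensity of this list was 4885 in HT-29, mostly LYZ, and 1455 in MDA-MB-436; the part of such genes in the other differences was not tested. Fibroblast markers numbered 11, with 6 under background in both and none past 4-fold. Of 12 endothelial markers, 9 were under background in both, PECAM1 at 10.2 against 15.6 and CDH5 at 13.1 against 13.7, while the junction gene ESAM was at least 6.88-fold brighter in HT-29 (206 against 23.8). The summed intensity of the endothelial list was 591 in HT-29 and 665 in MDA-MB-436, and that of the fibroblast list 195 and 299.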

How the data were processed

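Total RNA of 3 cell lines was hybridised to exon arrays, 1 array per line, per the labels' protocols. The authors deposited 1 linear intensity per transcript cluster and array; summary method, background correction and normalization are not given in the sources used here, and the submitters' processing notes name hg19. Groups were taken from the submitters' labels. Of 18708 clusters, 14733 had a single symbol, 2875 several and 1100 none; symbols were updated by gene identifier to RefSeq GRCh38.p14 names (14705 matched). Genes without a cluster of their own were not analysed here. Signal may be shared among probes of related genes.

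Intensities under the background of 29.9 were raised to it, log2 transformed and subtracted, HT-29 minus MDA-MB-436. The floor makes folds against dim values lower bounds. No test was made. The calling step was tested on simulated data. Changes there were placed in genes far above background, so it says little about calls against values under background. Members and the 40 gene lists were chosen with earlier results of these data known, and 23 genes were on more than 1 list. Named genes were the 10 largest differences or bounds per direction, list members by role with folds for up to 6 per direction, and single genes fixed with the lists. Motif matches used plain text search of the RefSeq promoter table. Alternatives covered background, scaling, cluster choice and fold. Software was Python (3.11.15) with pandas (2.3.3), numpy (2.4.6) and, for figures, matplotlib (3.10.9).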

Additional observations from a re-analysis of the deposited data

How the results depend on the processing

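No paired analysis was possible because each group had 1 array. At folds of 2 and 8, HT-29 was higher for 1554 and 207 genes and lower for 1353 and 170. With the stricter background of 60.6, the 99th percentile of olfactory receptor values, 259 genes were lower, and with neither floor nor filter 714; at a fold of 4, the other counts over all genes, under these settings, quantile normalization, median centring and the median over clusters were within 1.5 times. Of all genes past 4-fold, 53.3% were higher in HT-29, and 50.6% and 57.8% under quantile normalization and median centring. That share was 60.6% at the stricter background but 47.3% without the floor (607 higher, 675 lower) and 47.2% with neither floor nor filter (638 higher, 714 lower), so the side with more genes turned without the floor. No list median of 0.5 or more in size reversed under any alternative. Of 194 listed genes past 4-fold, 7 lost the call under quantile normalization, 1 with centring and 38 at the stricter background. Calls gained by other listed genes numbered 7, 1 and 0 under these settings.

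In the epithelial, intestinal, mesenchymal and interferon lists, medians moved by 0.5 or more in these cases. At the stricter background they were 1.27 for CEACAM and lectin genes, 0 for mucins, -1.72 for EMT factors and -0.56 for matrix glycoproteins. On measured values without the floor, with or without the filter, they were 0.88 for cadherins, 3.08 for CEACAM and lectin genes, 1.98 for mucins, -3.36 for EMT factors and -1.97 for matrix glycoproteins. Over members above background they were 0.78 for cadherins, 2.002 for desmosomes, 1.06 for keratins, 1.18 for brush border, 3.48 for CEACAM and lectin genes, 1.93 for mucins and -1.31 for matrix proteases.

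Counts of members past 4-fold in these lists moved by over 1.5 times as follows. At the stricter background, 1 cadherin, 3 EMT factors, 1 integrin or laminin and 0 antiviral genes were lower in HT-29, and 2 brush border genes were higher. Without the floor, with or without the filter, 5 intestinal transcription factors and 2 caveolin, cavin or annexin genes were higher, and 3 collagens and 8 matrix proteases or inhibitors lower; without the filter 1 matrix glycoprotein was higher. After quantile normalization 4 integrin or laminin genes were lower. The deposited arrays do not show how precise any single value is.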

Other observations

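Differences were also set out by chromosome, over genes above background on either array, with RefSeq positions used only for order. On the X chromosome 28 of 325 genes were past 4-fold toward MDA-MB-436 (8.62%) and 9 toward HT-29, and of the genes on chromosome 8, 30 of 391 were so (7.67%), against 4.31% of all such genes. Of those on chromosome 20, 3 of 313 were past 4-fold toward MDA-MB-436 and 17 toward HT-29. Of those on chromosome 11, 50 of 628 were past 4-fold toward HT-29 (7.96%), against 4.92%. These counts are over genes, which are not independent replicates.

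Over runs of 25 neighbouring genes, the lowest median log2 differences were -1.22 for the run from CFAP20DC to ROBO1 on chromosome 3, -1.20 for the run from ARHGEF10 to PDGFRL on chromosome 8 and -1.20 for the run from FGF11 to PFAS on chromosome 17. In the chromosome 8 run all 25 genes were lower in HT-29, 4 of them at least 4-fold, and in the chromosome 17 run from FGF11 to PFAS 24 of 25 were lower with 1 past 4-fold. Runs were picked for their extreme medians, leaving out runs close to a picked run on the same chromosome. Counts within a run therefore restate that choice and are no test. The highest medians were 1.28 for the run from SP6 to SPOP on chromosome 17, 1.24 for the run from SIRT3 to CD151 on chromosome 11 and 1.23 for the run from MTHFD2L to PRDM8 on chromosome 4. The chromosome 17 run from SP6 to SPOP spans HOXB genes, and the chromosome 4 run spans CXCL9, CXCL10 and CXCL11.

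Clusters without a single symbol were not part of the comparison. Of these 3975 clusters, 82 were past 4-fold toward HT-29 and 81 toward MDA-MB-436.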
